A study of Homo sapiens with 9 samples.

Results

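The 6 genes ST6GALNAC1 to ST6GALNAC6 encode Golgi sialyltransferases that attach sialic acid in alpha-2,6 linkage to an N-acetylgalactosamine (GalNAc) residue. Among 927 genes named on the array, these 6 were read by 7 of the 1259 probe sets of the array, found by matching the RefSeq identifier of each probe set to the gene symbol. ST6GALNAC4 had 2 probe sets and each other member had 1. The platform is not named in the labels, and its gene names include many glycosylation enzymes, lectins, growth factors and cytokines, so shares of all probe sets are over that content and not over all genes. RNA came from T84 and Caco-2, established human cell lines of colon carcinoma origin. T84 cells had been given 100 U/ml interferon gamma for 24 hours (3 arrays, called treated T84 here) or were untreated at passage 68 (3 arrays), and untreated Caco-2 cells were at passage 37 (3 arrays). No passage was available here for treated T84, so it is not known to match that of untreated T84. Both untreated groups were grown in 6-well plates to near confluence, and no other allele or agent is named. No Caco-2 cells given interferon gamma were analysed here, so the treatment was seen in 1 line, and each line comes from 1 tumour. The series asked which glycosylation genes could bear on the sialylated CD44 variant epitope GM35, which interferon gamma raises in T84 and which Caco-2 lacks. The labels number the replicates without saying that they were separate cultures, so a p-value here speaks to the variation among the arrays themselves, which may be technical. In bulk RNA such as this, a change in every cell and a change in a share of the cells cannot be told apart.

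Mucin-type O-glycans start with GalNAc on serine or threonine, the Tn antigen, which is extended with galactose to core 1. Sialic acid on the GalNAc of Tn gives sialyl-Tn and stops extension, and sialic acid on the GalNAc of core 1 that already carries an alpha-2,3 sialic acid gives disialyl core 1. ST6GALNAC1 is the main maker of sialyl-Tn, and ST6GALNAC2 acts on the GalNAc of O-glycans with a preference for extended core 1. ST6GALNAC3 and ST6GALNAC4 act on sialylated core 1, and ST6GALNAC3, ST6GALNAC5 and ST6GALNAC6 act on the GalNAc of gangliosides, the sialic acid-bearing glycolipids of the cell surface. ST6GALNAC6 also takes part in making disialyl Lewis a in normal colon.

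With interferon gamma, ST6GALNAC2 rose 2.36-fold and ST6GALNAC1 fell 1.35-fold in T84 cells. The other 4 members, among them the enzymes of sialylated core 1, did not pass the test, and 10.2% of all probe sets did. Between untreated T84 and Caco-2 all 6 members passed, as did 43.7% of all probe sets. ST6GALNAC1 and ST6GALNAC5 were higher in T84, and ST6GALNAC2, ST6GALNAC3, ST6GALNAC4 and ST6GALNAC6 were higher in Caco-2.

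Values are log2 signals from RMA, a method that summarises the probes of a probe set and normalises between arrays, so 1 unit is a doubling. Array medians lay between 6.70 and 6.80. Changes were tested with limma in a single fit to all 9 arrays, with Benjamini-Hochberg adjustment over all 1259 probe sets and a call at an adjusted p below 0.05. Correlations between arrays of a group ran from 0.987 to 0.999 over the probe sets of an array, which are not independent of each other, and the lowest involved Caco-2. The deviations of treated T84 replicate 3, untreated T84 replicate 3 and Caco-2 replicate 1 from their group means were correlated with each other (0.484 to 0.756 over probe sets). Without these 3 arrays together, an alternative chosen after seeing the data, no call of a family probe set changed. The number of arrays limits the precision. Of 8 interferon gamma response genes measured as a check of the labels, 7 rose in treated T84, among them CXCL10 by 5.11 ± 0.10 log2 units (SE). Of 18 intestinal epithelium markers listed, 9 were measured, and EPCAM, CDH1, VIL1 and KRT20 were among those that were not. Of the 9 measured, 6 were higher in untreated T84 than Caco-2, beside 19.5% of all probe sets. Another 1 was lower (MUC17, -0.49 ± 0.10 log2 units, SE), beside 24.2% of all probe sets, and 2 did not pass. The largest difference was in LGALS4, a galectin of intestinal epithelium (6.10 ± 0.05). Array means of the list lay between 8.78 and 8.94 in T84 and between 7.06 and 7.31 in Caco-2. Of 15 leukocyte markers listed 11 were measured, PTPRC and CD14 not among them, and of 12 fibroblast or endothelium markers 8 were. None of these 11 and 8 passed between treated and untreated T84. Between the lines, 1 of the 11 (CD22) was higher in T84 in each comparison, beside 19.5% (untreated) and 19.4% (treated) of all probe sets, and 3 of the 8 were lower, beside 24.2% and 26.2%. In treated T84 the CD22 call was lost when any of 7 of the 9 arrays was left out (adjusted p up to 0.133). With ribosomal centring, a scaling described with ST6GALNAC4, 7 of the 11 leukocyte markers were higher in untreated and 11 in treated T84, and of the other 8 markers 2 were higher and 3 lower in untreated T84 and 4 higher and 2 lower in treated T84. Under that scaling the median difference of all probe sets from Caco-2 was 0.21 in untreated and 0.28 in treated T84. In treated T84, 760 of all 1259 probe sets were then higher than in Caco-2 and 223 lower. Array means of the leukocyte list lay between 5.55 and 5.69 in all groups, and those of the fibroblast and endothelium list between 4.82 and 4.89 in T84 and between 5.04 and 5.19 in Caco-2. The part of these differences in the results between the lines was not tested.

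**Figure D1:**
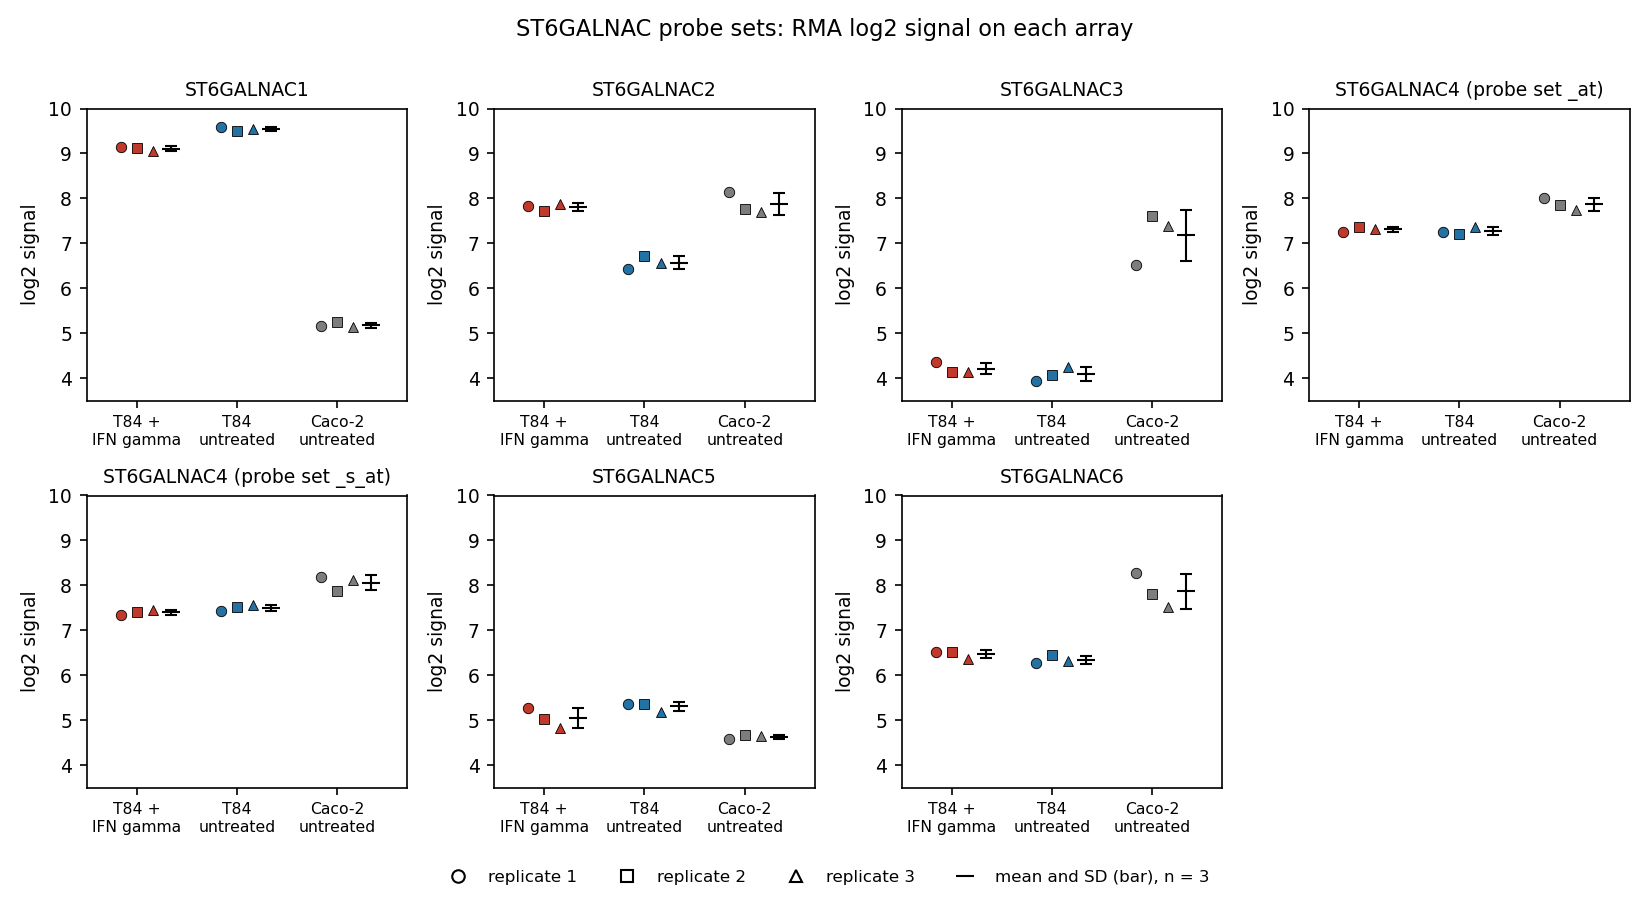
Log2 signal (vertical axis) of the 7 ST6GALNAC probe sets on each of the 9 arrays, by group, with marker shapes for replicate numbers and a bar for the mean and SD of 3 arrays. ST6GALNAC1 lay between 9.05 and 9.59 in T84 and between 5.15 and 5.24 in Caco-2, and ST6GALNAC2 had its lowest values in untreated T84.

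ST6GALNAC2 read 6.43, 6.72 and 6.55 in the 3 untreated T84 arrays, 7.84, 7.71 and 7.88 in the 3 treated T84 arrays, and 8.15, 7.76 and 7.71 in the 3 Caco-2 arrays. Every treated array lay above every untreated T84 array, and the treated T84 and Caco-2 values overlapped. The rise with interferon gamma was 1.24 ± 0.12 log2 units (SE; 2.36-fold, 95% confidence interval 1.94 to 2.88; limma adjusted p = 0.000405, n = 3 per group). Counting ST6GALNAC2 itself, 14 of 1259 probe sets (1.11%) had a log2 fold change at least that high. Untreated T84 lay below Caco-2 by 2.47-fold (2.02 to 3.01; limma adjusted p = 4.23e-05). Treated T84 differed from Caco-2 by -0.06 ± 0.12 log2 units (95% confidence interval -0.35 to 0.22; limma adjusted p = 0.71), a difference whose sign turned when Caco-2 replicate 1 was left out (0.075). The order was therefore untreated T84 lowest, with treated T84 and Caco-2 not told apart.

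ST6GALNAC1 read 9.59, 9.49 and 9.54 in untreated T84, 9.15, 9.12 and 9.05 in treated T84, and 5.15, 5.24 and 5.15 in Caco-2. The 3 groups did not overlap, with SDs from 0.0476 to 0.0535. It fell with interferon gamma by 0.43 ± 0.05 log2 units (SE; 1.35-fold, 95% confidence interval 1.25 to 1.46; limma adjusted p = 0.000916, n = 3 per group). The fall was small beside the distance between the lines. T84 exceeded Caco-2 by 4.36 ± 0.05 log2 units when untreated (20.5-fold, 18.9 to 22.2) and by 3.93 ± 0.05 when treated (15.2-fold, 14.0 to 16.5; limma adjusted p = 9.95e-11 and 1.6e-10). Of all probe sets, 0.477% had a log2 fold change at least as high in the untreated comparison and 0.874% in the treated one. In Caco-2 the probe set was dim, with 22.2% of probe sets dimmer. No detection calls were used here, and how much of that signal was background was not tested.

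ST6GALNAC3, whose enzyme acts on sialylated core 1 and on gangliosides, showed the reverse contrast between the lines. It read 3.95, 4.08 and 4.24 in untreated T84, 4.36, 4.15 and 4.14 in treated T84, and 6.53, 7.61 and 7.39 in Caco-2. The T84 groups overlapped and lay below all Caco-2 arrays. Caco-2 exceeded untreated T84 8.49-fold (95% confidence interval 5.72 to 12.6, n = 3 per group; limma adjusted p = 1.54e-05) and treated T84 7.79-fold (5.25 to 11.6; adjusted p = 1.63e-05). Log2 fold changes as low were seen in 1.27% and 1.51% of all probe sets. Caco-2 replicate 1 was the lowest of the Caco-2 arrays, and without it the log2 differences were -3.41 and -3.29 in place of -3.09 and -2.96. In T84 the probe set was among the dimmest, with 8.74% of probe sets dimmer in untreated and 10.7% in treated cells. The leukocyte markers read from 3.46 (CD69) to 7.04 (KLRD1) in untreated T84, so they give no common floor. How much of the ST6GALNAC3 signal in T84 was background was not tested, and the folds hold for the signals as measured. Its change with interferon gamma was 0.12 ± 0.25 log2 units (95% confidence interval -0.45 to 0.69; limma adjusted p = 0.898). Since 1 fit covers all 9 arrays, the spread of the Caco-2 arrays (SD 0.57) enters this interval too.

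ST6GALNAC4, the other enzyme of sialylated core 1, showed no detectable change with treatment. Its brighter probe set, whose suffix marks it as shared among transcripts, read 7.43, 7.51 and 7.57 in untreated T84, 7.34, 7.40 and 7.45 in treated T84, and 8.19, 7.88 and 8.12 in Caco-2. The second probe set read 7.26, 7.20 and 7.37, then 7.26, 7.36 and 7.31, then 8.02, 7.86 and 7.74 in the same order. In both, the T84 groups overlapped each other and lay below every Caco-2 array. Interferon gamma gave -0.10 ± 0.08 log2 units in the first (95% confidence interval -0.29 to 0.09; limma adjusted p = 0.628) and 0.03 ± 0.08 in the second (-0.14 to 0.21; adjusted p = 0.925). Caco-2 exceeded untreated T84 by 1.48-fold and 1.51-fold (limma adjusted p = 0.000581 and 0.000287) and treated T84 by 1.58-fold and 1.47-fold (0.000184 and 0.000359, n = 3 per group). Centring every array on its ribosomal protein genes moved the median difference of all probe sets to 0.21 (untreated T84 minus Caco-2) and 0.28 (treated T84 minus Caco-2). Under that centring all 4 differences still passed but were smaller, so the folds above depend on the scaling.

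ST6GALNAC5, which makes alpha-series gangliosides and is known best from brain, had a low signal throughout. It read 5.37, 5.37 and 5.19 in untreated T84, 5.27, 5.03 and 4.84 in treated T84, and 4.58, 4.67 and 4.66 in Caco-2. Between 15.0 and 25.4% of probe sets were dimmer in each group. The Caco-2 arrays lay below all T84 arrays, and the 2 T84 groups overlapped. T84 was higher than Caco-2 by 0.68 ± 0.11 log2 units when untreated (SE; 1.60-fold, 95% confidence interval 1.35 to 1.89; limma adjusted p = 0.000814) and by 0.41 ± 0.11 when treated (1.33-fold, 1.12 to 1.57; adjusted p = 0.0119). With interferon gamma the difference was -0.27 ± 0.11 (-0.51 to -0.02, unadjusted interval; limma adjusted p = 0.203, n = 3 per group). This one did not pass, though it passed without treated T84 replicate 1 (-0.38, adjusted p = 0.0361) and with array weights (-0.29, adjusted p = 0.046).

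ST6GALNAC6, another enzyme of gangliosides, read 6.28, 6.45 and 6.31 in untreated T84, 6.52, 6.52 and 6.37 in treated T84, and 8.28, 7.82 and 7.51 in Caco-2. Again, the T84 groups overlapped and all Caco-2 arrays were higher. Caco-2 exceeded untreated T84 by 2.87-fold (95% confidence interval 2.20 to 3.76; limma adjusted p = 0.0001) and treated T84 by 2.64-fold (2.02 to 3.45; adjusted p = 0.000149, n = 3 per group). Caco-2 replicate 1 was the highest array here, while it was the lowest Caco-2 array for ST6GALNAC3. Without it, the log2 differences were -1.32 and -1.19 in place of -1.52 and -1.40. With interferon gamma the difference was 0.12 ± 0.17 log2 units (-0.26 to 0.51; limma adjusted p = 0.819).

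**Figure D2:**
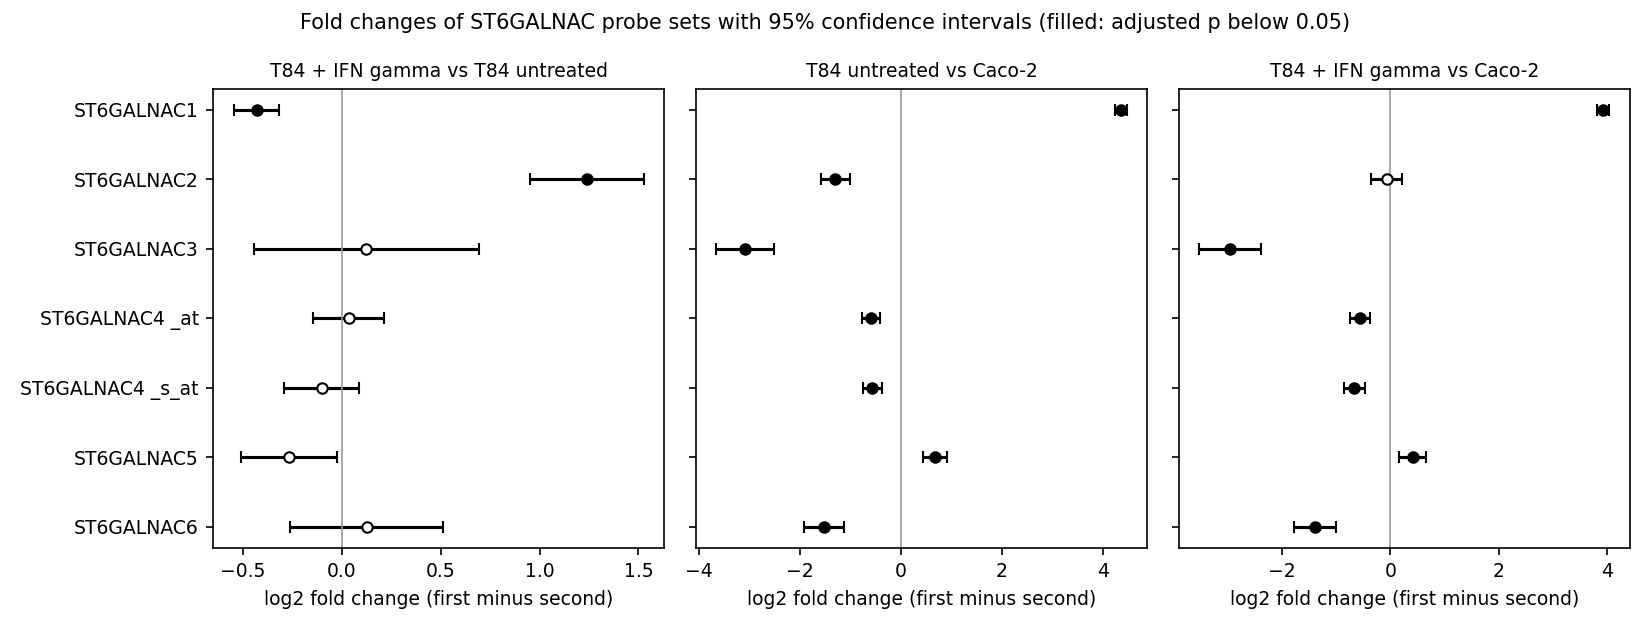
Log2 fold changes (horizontal axis, first group minus second) of the 7 probe sets with 95% confidence intervals in each comparison, filled where the adjusted p was below 0.05. With interferon gamma only ST6GALNAC1 and ST6GALNAC2 are filled, and between untreated T84 and Caco-2 all 7 are.

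In counts, 2 of the 7 probe sets, and 2 of the 6 genes, passed between treated and untreated T84, beside 10.2% of all probe sets tested. By direction, 1 was higher and 1 lower, beside 4.37% and 5.8% of all probe sets. The same 2 probe sets had groups that did not overlap, beside 27.5% of all probe sets. Between untreated T84 and Caco-2, 7 of 7 passed beside 43.7%, and 7 of 7 had groups that did not overlap beside 49.6%. Between treated T84 and Caco-2, 6 of 7 passed beside 45.6%, and the same 6 had groups that did not overlap beside 53.5%. The exception was ST6GALNAC2. Between the lines, 2 probe sets were higher and 5 lower when untreated T84 was set against Caco-2, beside 19.5% and 24.2% of all probe sets, and 2 were higher and 4 lower in treated T84, beside 19.4% and 26.2%. With 7 probe sets, these shares describe the family and were not tested against the rest. Both comparisons with Caco-2 use the same 3 Caco-2 arrays, and each shares its T84 arrays with the comparison of treatments.

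**Figure D3:**
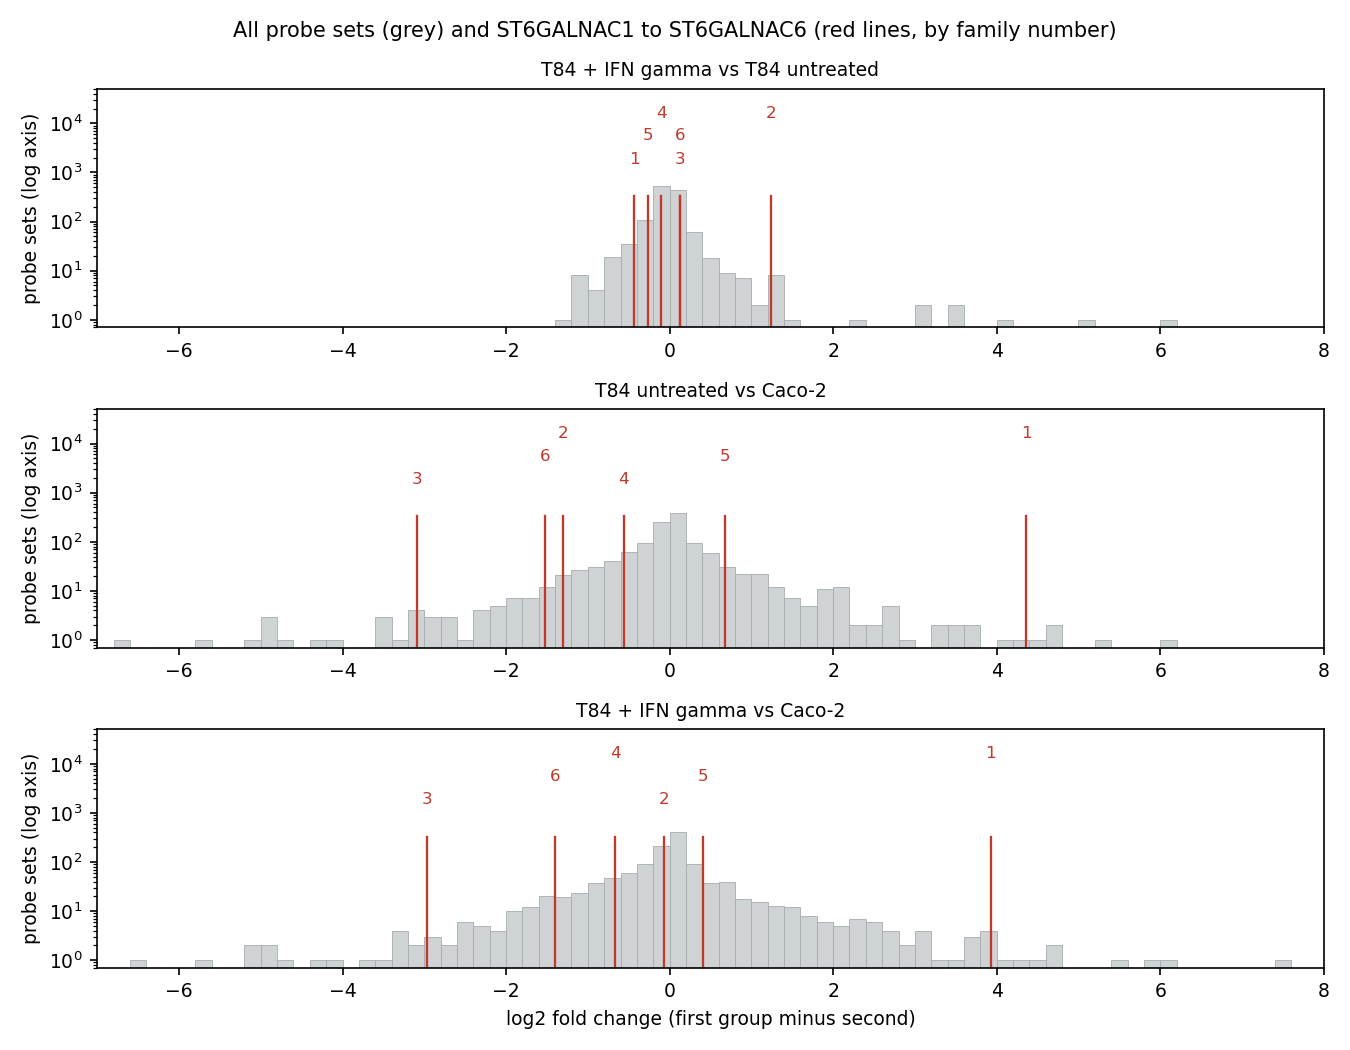
Number of probe sets (vertical log axis) by log2 fold change (horizontal axis) in each comparison, with red lines at the probe set that represents each of ST6GALNAC1 to ST6GALNAC6, labelled by family number. ST6GALNAC2 lies in the upper tail with interferon gamma, and ST6GALNAC1 and ST6GALNAC3 lie in opposite tails between the lines.

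The balance between members was followed as the difference between 2 probe sets on the same array. Such a difference shows unequal change between groups and does not tell which transcript is more abundant, since probe sets differ in brightness. Members were paired by substrate, giving 3 pairs, and each pair was compared across the 3 groups with an exact permutation test over all 1680 assignments of the arrays.

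For the O-glycan pair, ST6GALNAC2 minus ST6GALNAC1 was -3.15, -2.77 and -2.98 in untreated T84, -1.32, -1.41 and -1.17 in treated T84, and 3.00, 2.52 and 2.56 in Caco-2. The groups did not overlap, and treated T84 stood between untreated T84 and Caco-2. Interferon gamma shifted the balance by 1.67 ± 0.16 log2 units toward ST6GALNAC2 (SE, n = 3; 3.19-fold). The remaining distance of treated T84 from Caco-2 was -3.99 ± 0.16, and that of untreated T84 was -5.66 ± 0.16. Both distances rest on the dim ST6GALNAC1 signal of Caco-2, whose background share was not tested.

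For the enzymes of sialylated core 1, ST6GALNAC4 minus ST6GALNAC3 was 3.48, 3.43 and 3.32 in untreated T84, 2.98, 3.26 and 3.32 in treated T84, and 1.66, 0.28 and 0.73 in Caco-2. All T84 arrays were above all Caco-2 arrays, by 2.52 ± 0.35 units for untreated and 2.30 ± 0.35 for treated cells (SE, n = 3). Both distances rest on the dim ST6GALNAC3 signal of T84, whose background share was not tested. Between treated and untreated T84 the shift of -0.23 ± 0.35 was smaller than its standard error. For the ganglioside pair, ST6GALNAC6 minus ST6GALNAC5 was 0.91, 1.08 and 1.12 in untreated T84, 1.25, 1.49 and 1.54 in treated T84, and 3.70, 3.15 and 2.86 in Caco-2. The T84 groups did not overlap, with a shift of 0.39 ± 0.22 units, and untreated T84 was 2.20 ± 0.22 below Caco-2. These values rest on the low ST6GALNAC5 signal, whose background share was not tested either.

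In the test across the 3 groups, each of the 3 pairs gave an exact permutation p of 0.00357, the smallest that 9 arrays in 3 groups can give, and the value was the same after Benjamini-Hochberg adjustment over the 3 pairs. That test does not say which groups differ. Between any 2 groups, 3 arrays against 3 cannot go below an exact permutation p of 0.1, and each of the 9 comparisons gave 0.1. For ST6GALNAC4 minus ST6GALNAC3 these results are those of the brighter ST6GALNAC4 probe set. There the highest treated T84 value (3.3184) lay just below the lowest untreated T84 value (3.3225). With the second ST6GALNAC4 probe set the values of these 2 groups overlapped, and the p-values above do not cover it.

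**Figure D4:**
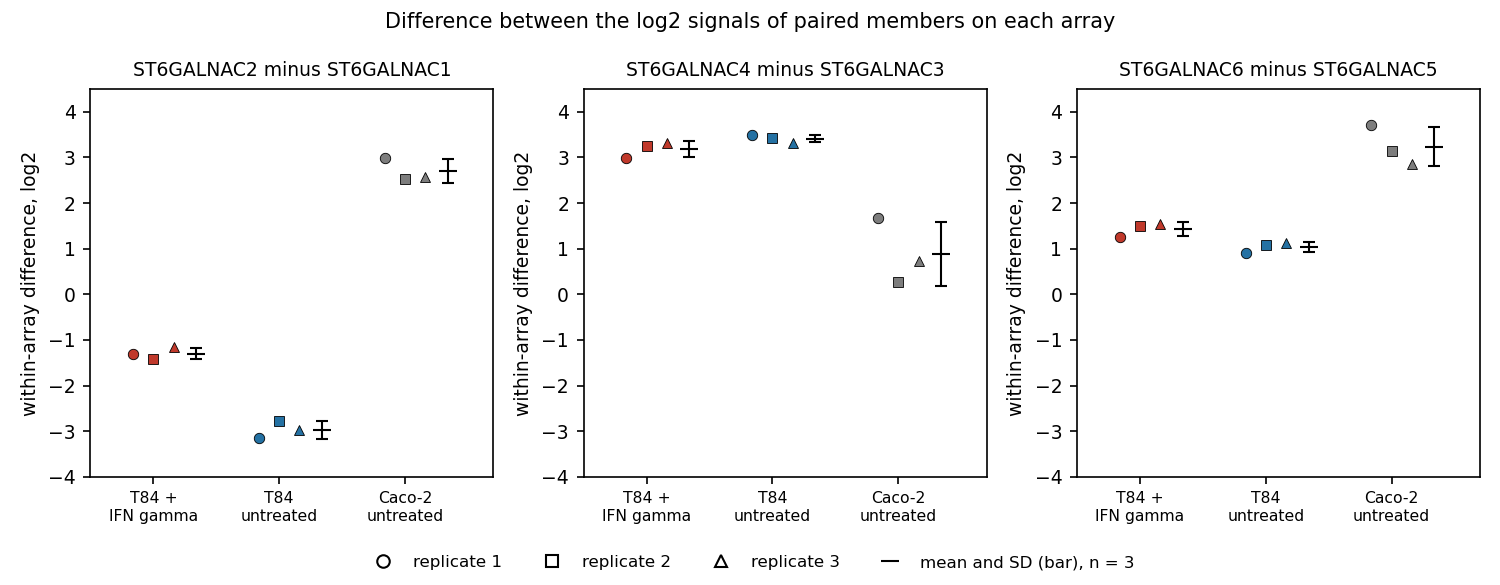
Within-array difference of log2 signal (vertical axis) for the 3 pairs of members on each array, by group, with the mean and SD of 3 arrays. For ST6GALNAC2 minus ST6GALNAC1 the 3 groups lie apart, from -3.15 to -2.77 in untreated T84 up to 2.52 to 3.00 in Caco-2, and for the other pairs the main step is between T84 and Caco-2.

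In the RefSeq gene order the family falls into neighbours. ST6GALNAC3 and ST6GALNAC5 lie next to each other, as do ST6GALNAC4 and ST6GALNAC6, with 0 protein-coding genes between them, and ST6GALNAC1 and ST6GALNAC2 are separated by 1. In untreated T84 against Caco-2, the neighbours ST6GALNAC3 and ST6GALNAC5 differed in opposite directions, as did ST6GALNAC1 and ST6GALNAC2. ST6GALNAC4 and ST6GALNAC6 were both higher in Caco-2. The same calls were made in treated T84 against Caco-2, except that ST6GALNAC2 did not pass (-0.06 log2 units, limma adjusted p = 0.71). The RefSeq promoter windows (GRCh38, 250 bases before to 50 after a start) were matched for 4 members, and ST6GALNAC1 and ST6GALNAC2 were not analysed here. Those of the chromosome 1 neighbours and of ST6GALNAC4 are printed to set these patterns beside the sequence near the starts. Capitals mark the GC box GGGCGG on either strand.
ST6GALNAC3, chr1:76074496-76074795, plus strand: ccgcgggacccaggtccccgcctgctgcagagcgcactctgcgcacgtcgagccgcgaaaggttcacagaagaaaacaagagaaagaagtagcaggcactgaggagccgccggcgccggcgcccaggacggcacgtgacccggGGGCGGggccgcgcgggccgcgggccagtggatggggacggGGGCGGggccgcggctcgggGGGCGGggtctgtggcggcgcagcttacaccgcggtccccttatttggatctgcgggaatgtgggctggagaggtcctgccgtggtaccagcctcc
ST6GALNAC5, chr1:76867230-76867529, plus strand: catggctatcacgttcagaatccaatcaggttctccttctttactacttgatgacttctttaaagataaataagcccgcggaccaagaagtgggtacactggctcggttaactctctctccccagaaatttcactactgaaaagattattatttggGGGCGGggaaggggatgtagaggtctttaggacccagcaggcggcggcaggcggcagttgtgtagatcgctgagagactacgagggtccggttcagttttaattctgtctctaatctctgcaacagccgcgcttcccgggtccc
ST6GALNAC4, chr9:127916992-127917291, minus strand: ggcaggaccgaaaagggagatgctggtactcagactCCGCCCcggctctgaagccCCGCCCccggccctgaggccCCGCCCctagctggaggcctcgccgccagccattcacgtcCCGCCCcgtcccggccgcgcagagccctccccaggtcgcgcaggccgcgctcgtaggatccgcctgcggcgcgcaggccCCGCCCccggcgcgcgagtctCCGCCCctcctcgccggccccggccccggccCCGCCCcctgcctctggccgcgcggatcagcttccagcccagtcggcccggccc

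The windows differ in base composition, with 72.0% G and C for ST6GALNAC3, 50% for ST6GALNAC5 and 79.0% for ST6GALNAC4, where the median of 34943 windows in the table was 58.7%. They hold 3, 1 and 7 GC boxes, and 44.9% of all windows hold at least 1. ST6GALNAC6 has 3 windows on chromosome 9 with 0, 2 and 5 GC boxes, and its probe set is not assigned to one start. The TATA box TATAAA (11.6% of all windows) matched in none of these 6 windows. Both strands were searched, and each motif was searched separately. A match is a description of letters and not a bound site.

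Genes with the most similar profile were found by the root mean square difference over the 9 arrays after each probe set was centred on its own mean, among 926 other genes. For ST6GALNAC2 the closest was HK1, the hexokinase that phosphorylates glucose (difference 0.149 log2 units, against 0.616 for the spread of ST6GALNAC2 itself), which rose with interferon gamma by 1.12 ± 0.10. FUT4, a fucosyltransferase that makes Lewis x-type structures (0.352), and GNPDA1, a glucosamine-6-phosphate deaminase (0.386), followed at a distance. For ST6GALNAC1 the closest was CD44 (0.222, against 1.96), the carrier of the GM35 epitope, then UGT1A1 (0.284) and the glypican GPC4 (0.293). For ST6GALNAC3 they were ST3GAL6, an alpha-2,3 sialyltransferase (0.152, against 1.45), the N-glycan mannosidase MAN1A1 (0.171) and the steroid sulfatase STS (0.189). For ST6GALNAC6 they were ST3GAL1, which adds the alpha-2,3 sialic acid of core 1 (0.138, against 0.717), and the lysosomal enzymes GALNS (0.139) and HYAL1 (0.170). ST6GALNAC4 was closest to FGFR1, RPL37 and GMPPA (0.079 to 0.095, against 0.305), and ST6GALNAC5 to JAG1, RPL14 and ALG11 (0.123 to 0.129, against 0.301). The profiles of these last 2 members are shallow, and small differences there come from a small spread. Likeness over 9 arrays in 3 groups is mainly likeness of 3 group means.

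With interferon gamma, 10.2% of all probe sets passed the test, 4.37% higher and 5.8% lower. The genes of the substrates are given by list beside these shares. Of 18 measured GALNT genes, whose enzymes add the GalNAc of Tn, 0 rose and 2 fell: GALNT11 by 0.69 ± 0.12 and GALNT12 by 0.66 ± 0.11 log2 units (SE; limma adjusted p = 0.00718 and 0.00749, n = 3 per group), beside 4.37% and 5.8% of all probe sets. The 3 untreated T84 arrays held 1 identical value for GALNT11 (7.66). None of 8 genes of O-glycan cores and core 1 sialylation passed, nor any of 9 ganglioside synthesis genes, with list medians of 0.06 and -0.01 beside -0.01 over all probe sets. Of the 14 other sialyltransferase genes, some of which are also in those 2 lists, 1 fell: ST3GAL4 by 0.55 ± 0.11 (limma adjusted p = 0.0139). That call was lost when treated T84 replicate 1, treated T84 replicate 2 or untreated T84 replicate 3 was left out (adjusted p up to 0.0589). Of 4 measured genes of supply of CMP-sialic acid, the donor that all family members use, 1 fell: GNE, the first enzyme of sialic acid synthesis, by 1.02 ± 0.11 (limma adjusted p = 0.000757). No measured gene of sialidases or sialic acid O-acetylation passed, out of 4. Among 12 measured carriers of such O-glycans, mucins and CD44, 3 rose and 0 fell: MUC4 by 1.42 ± 0.08, MUC1 by 1.26 ± 0.05 and MUC13 by 0.40 ± 0.07.

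Between untreated T84 and Caco-2, 5 of 18 GALNT genes were higher in T84 and 3 lower, and 4 of 8 core genes were higher and 1 lower, beside 19.5% and 24.2% of all probe sets. C1GALT1C1, the chaperone without which core 1 is not made and Tn is not extended, was higher in T84 by 0.95 ± 0.12 log2 units (SE; limma adjusted p = 0.000238). GCNT3, the mucin-type core branching enzyme, was higher by 1.98 ± 0.13. ST3GAL1, which supplies the sialylated core 1 that ST6GALNAC3 and ST6GALNAC4 use, was higher in Caco-2, as both of those members were, at -1.33 ± 0.10 in T84 relative to Caco-2. Of 9 ganglioside genes, 1 was higher in T84 (B3GALT4, 0.55 ± 0.11) and 1 lower (B4GALT5, -0.34 ± 0.09). B4GALT5 did not pass without untreated T84 replicate 2 or without Caco-2 replicate 2 (adjusted p up to 0.0713), nor with ribosomal centring (-0.15). Among supply genes 3 of 4 were higher in T84 and 0 lower, and among the 12 carriers 5 were higher and 2 lower, CD44 among the higher. The list medians were 0.18 for GALNT genes, 0.47 for core genes, -0.005 for ganglioside genes, 0.94 for supply genes and 0.25 for carriers, beside 0.02 over all probe sets. In treated T84 the counts higher and lower than Caco-2 were 5 and 3, 4 and 2, 1 and 1, 3 and 1, and 7 and 2 in the same order.

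Several of these counts changed when 1 array was left out. Every drop in a count is given here, with some of the rises. In untreated T84, 2 core genes were lower without Caco-2 replicate 1 or replicate 3. The count of higher core genes was 3 without untreated T84 replicate 1 or replicate 2. The count of lower ganglioside genes was 0 without untreated T84 replicate 2 or Caco-2 replicate 2, and 2 without Caco-2 replicate 1. The count of lower carriers was 1 without untreated T84 replicate 1 or replicate 3, or Caco-2 replicate 2 or replicate 3. In treated T84, 3 GALNT genes were higher without treated T84 replicate 1 or Caco-2 replicate 2, and 4 without Caco-2 replicate 3. The count of lower core genes was 3 without Caco-2 replicate 1. The count of higher supply genes was 2 without treated T84 replicate 1 or replicate 2. The ganglioside counts higher and lower were 0 and 0 without treated T84 replicate 3, 0 and 1 without Caco-2 replicate 2 or replicate 3, and 1 and 2 without Caco-2 replicate 1. NANS, the sialic acid synthase and the 1 lower supply gene (-0.26, limma adjusted p = 0.0446), was lost without any of 7 of the 9 arrays, all but untreated T84 replicate 1 and replicate 2. The count of lower carriers was 1 without treated T84 replicate 1, Caco-2 replicate 2 or Caco-2 replicate 3. With ribosomal centring the counts were 9 and 2, 5 and 1, 5 and 0, 3 and 0, and 10 and 1 for untreated T84, and 13 and 2, 5 and 1, 5 and 0, 3 and 0, and 10 and 1 for treated T84. That scaling moved the median difference of all probe sets to 0.21 for untreated and 0.28 for treated T84. For treated T84 it gave 760 higher and 223 lower of all 1259 probe sets.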

How the data were processed

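Trizol-extracted total RNA (0.5 ug) was made into biotinylated cRNA and hybridised to single-colour arrays, per the labels. The deposited values are log2 signals per probe set that the authors made with RMA, per the submitters' processing notes. Its version and the build behind it: not given in the sources used here. Values were used as deposited, with no filter.

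Probe sets were named by RefSeq identifier without version through a RefSeq gene table (GRCh38). Of 1259, 1043 had exactly 1 symbol and 216 had none or several. All 6 family genes matched. A gene with several probe sets is represented by the one with the highest mean, and the others are given beside it. By array convention, the suffix s_at marks probe sets shared among transcripts.

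One model with 3 groups was fitted to 9 arrays with limma 3.58.1 in R 4.3.3 (6 residual and 2.12 prior degrees of freedom). Errors of group means are SDs and of changes SEs. Balance errors use the spread pooled over the 3 groups. The fit was tested on simulated data of 1259 probe sets, 200 of them changed between treated and untreated T84. Changes of 0.25, 0.5, 1 and 2 log2 units were called in 50.3, 83.4, 95.3 and 98.7% of cases, and 4.13% of calls were false. These rates describe the simulated data only. Whether they hold for the real arrays, some of whose deviations from their group means were correlated, was not tested. Sequences come from RefSeq's promoter table.

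The named genes were all family probe sets, up to 4 members of each other list by adjusted p, and the 3 closest profiles per member. Members and lists were chosen with earlier results of these data known. Alternatives covered the arrays fitted, a replicate block, array weights, moderation, scaling, a filter on dim probe sets, stricter thresholds and single arrays left out. Figures were drawn with matplotlib 3.10.9.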

Additional observations from a re-analysis of the deposited data

How the results depend on the processing

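With 3 arrays per group, all calls of ST6GALNAC1 and ST6GALNAC2 with interferon gamma, and of the members between the lines, kept their direction and their side of 0.05 in every alternative that could be fitted, except that ST6GALNAC5 between treated T84 and Caco-2 (0.41, adjusted p = 0.0119) missed a threshold of 0.01. ST6GALNAC5 was not in the fit when dim probe sets were left out. Its difference with interferon gamma, not called, was called with array weights (-0.29), and ran from -0.38 to -0.16 over single arrays left out. The uncalled difference of ST6GALNAC2 between treated T84 and Caco-2 (-0.06) turned to 0.013 with quantile normalization, 0.19 with ribosomal centring and 0.038 without the 3 arrays that deviate together (an alternative chosen after seeing the data), and ran from -0.15 to 0.075 over single arrays left out. The second ST6GALNAC4 probe set ran from -0.003 to 0.079 with interferon gamma over single arrays left out. Requiring also a 2-fold change left 1, 3 and 4 family probe sets with interferon gamma, in treated T84 against Caco-2 and in untreated T84 against Caco-2. Over all probe sets that rule left 28, 215 and 194, in place of 128, 574 and 550. With interferon gamma a threshold of 0.01 left 79 and array weights gave 231, and single arrays left out gave 86 to 178. In treated T84 against Caco-2 ribosomal centring gave 983, of them 760 higher and 223 lower, in place of 244 and 330. Same-numbered arrays correlated from -0.643 to 0.561 in their deviations. Between treated and untreated T84 they gave 0.386, -0.024 and 0.561, and differently numbered arrays gave -0.512 to 0.397. With so few arrays, these values cannot tell whether the numbers pair the samples. With the replicate block, 109 probe sets were called with interferon gamma and the same number of family probe sets, 2, and the exact permutation p of each balance was 0.0278, the smallest possible there.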
